A study of Mus musculus with 21 samples.

Results

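The matrix metalloproteinases (MMP), the related ADAM and ADAMTS proteases and the tissue inhibitors of metalloproteinases (TIMP) were followed in mouse hearts after pressure overload. Members were all genes whose symbol in the array annotation is Mmp, Timp, Adam or Adamts followed by a number and an optional letter, which gave 65 of 18193 gene symbols: 18 Mmp, 28 Adam, 15 Adamts and 4 Timp genes. RNA labelled as coming from cardiac myocytes was measured on 21 Affymetrix arrays in 4 groups. These were G4D mice after transverse aortic constriction (TAC, n = 6), G4D mice after sham surgery (n = 5), wild-type mice after TAC (n = 6) and wild-type mice after sham surgery (n = 4). G4D mice carry 1 Gata4 allele that lacks the second exon beside an intact allele, and wild-type mice carry none. Gata4 encodes a transcription factor that heart muscle needs. In TAC a ligature narrows the aortic arch and puts the left ventricle under pressure, and sham surgery spared the aorta. Strain, sex, age and the time after surgery are not given in the sources used here, and neither is whether replicates are separate animals. The p-values therefore set differences against the spread between these samples, which may not be the spread between animals.

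All 4 families act outside the cell or at its surface. MMPs cut collagens, fibronectin and other matrix proteins and are made as inactive precursors whose prodomain must be removed. ADAMs are mostly anchored in the membrane and release growth factors, cytokines and receptors from the cell surface, while ADAMTS proteases are secreted and cut proteoglycans or trim procollagen. TIMPs plug the active site of these enzymes, each with its own preferences. In the pressure-loaded heart the balance of proteases and inhibitors is known to shape how collagen is laid down and removed.

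The labelled source was checked against markers. The 8 cardiac muscle markers averaged 12.27 to 12.45 on the log2 scale over the arrays, but fibroblast (7 of 7), endothelial (6 of 6) and macrophage markers (7 of 7) also lay above the level required for testing. The mean of the fibroblast markers was 9.08 to 9.56 in G4D TAC, 8.57 to 9.11 in G4D sham, 8.80 to 9.44 in wild-type TAC and 8.64 to 8.75 in wild-type sham. The mean of the macrophage markers was 8.29 to 8.79 in G4D TAC, 7.55 to 8.01 in G4D sham, 8.23 to 9.06 in wild-type TAC and 7.79 to 7.95 in wild-type sham. After TAC 13.2% of all tested genes were called higher in G4D and 5.19% in wild type. Of the macrophage markers 7 of 7 were called higher in G4D and 6 of 7 in wild type. Of the fibroblast markers 3 of 7 were called higher in G4D (Col1a1, Lum and Ddr2) and 2 of 7 in wild type (Col1a1 and Lum). Among the cardiac muscle markers 2 of 8 were called lower in G4D (Tnni3 and Pln) and 0 in wild type. Of all tested genes 9.32% were called lower in G4D. Among the endothelial markers 1 of 6 was called higher in wild type (Pecam1) and 0 in G4D. The part of these cell types in the changes below was not tested. In such mixed RNA more cells of a type and more RNA per cell cannot be told apart. The difference between the 3' and 5' actin probe sets, a measure of RNA quality, was 0.19 to 0.38 in G4D TAC, 0.38 to 0.63 in G4D sham, 0.11 to 0.41 in wild-type TAC and 0.44 to 0.67 in wild-type sham. Sample 5 of G4D sham stood apart with atrial muscle markers at 12.54, against 4.51 to 5.3 in the other G4D sham samples, and with the fat cell marker Adipoq at 8.01. Sample 6 of G4D TAC had atrial markers at 8.01. Gata4 itself averaged 7.97 ± 0.18 in G4D TAC and 7.80 ± 0.23 in wild-type TAC, and 7.85 ± 0.09 in G4D sham and 8.11 ± 0.15 in wild-type sham (SD). Where its probe sets lie relative to the deleted exon is not known, so they do not check the genotype labels.

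Of the 65 members, 39 reached the level required for testing, a mean of 4.35 (log2) over the 21 arrays, the 40th percentile of all probe sets. Among them were 4 of 4 Timp, 7 of 18 Mmp, 17 of 28 Adam and 11 of 15 Adamts genes. The 26 members below that level include all 4 classed as collagenases (Mmp1a, Mmp1b, Mmp8 and Mmp13), a class named for cutting fibrillar collagen. Among the 26 are all 3 stromelysins (Mmp3, Mmp10 and Mmp11), macrophage elastase (Mmp12), Mmp17, Mmp19 and enamelysin (Mmp20). They also include 11 of the 16 ADAMs that in the mouse are known mainly from germ cells and the reproductive tract (Adam1a, Adam2, Adam3, Adam6a, Adam6b, Adam7, Adam18, Adam24, Adam26a, Adam32 and Adam34). The other members below the level were Adamts6, Adamts8, Adamts19 and Adamts20. Adamts8 was above it in the mean of G4D TAC alone, at 4.86, and was not called in a limma fit without the filter. For TAC over sham that fit called Adam3 lower in G4D (log2 fold change -1.19, adjusted p = 0.036). It called Adam18 higher in wild type (1.15, adjusted p = 0.00674). The means of these genes over all arrays were 1.40 and 1.95. Of the tested members, 37 were at or above the level in the mean of every group. Timp1 and Adam4 were below it in 1 group each, Timp1 in G4D sham, at 4.32. Adamts2 is not among the members and was not analysed here.

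The genes of several members lie next to each other. Mmp13, Mmp12, Mmp1b, Mmp3, Mmp1a, Mmp10, Mmp8, Mmp20 and Mmp7 are 9 of the 10 genes of a single run in the RefSeq annotation, and Mmp7, matrilysin, alone reached the level for testing. The means of the 9 over all arrays ran from 2.63 to 4.95. Adam18, Adam3, Adam5, Adam32 and Adam9 form a run of 5, of which Adam5 and Adam9 were tested, and Adamts1 and Adamts5 are neighbours. Timp1, Timp3 and Timp4 each lie inside a synapsin gene, Syn1, Syn3 and Syn2. Whether the probe sets of overlapping genes share signal was not tested.

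Promoter sequence was available for 37 members as windows from 250 bases before to 50 bases after the RefSeq start (GRCm38.p6). Shown here are 3 promoters, of a TIMP, an MMP and an ADAMTS that rose after TAC in both genotypes. That of Timp3, which fell in G4D hearts, and that of Mmp13, as a member of the run of low genes, follow. Mmp23, which also rose in both genotypes, has 2 windows and is not shown. Capitals mark the matches on either strand to TGANTCA and TGAGTAA (AP-1 and a variant), GATAA (GATA factors), GGGCGG (Sp1) and TATAAA (the TATA box), read 5′ to 3′ on the strand of the gene. A match on the opposite strand is shown as its reverse complement.
Timp1, chrX:20869916-20870215, plus strand: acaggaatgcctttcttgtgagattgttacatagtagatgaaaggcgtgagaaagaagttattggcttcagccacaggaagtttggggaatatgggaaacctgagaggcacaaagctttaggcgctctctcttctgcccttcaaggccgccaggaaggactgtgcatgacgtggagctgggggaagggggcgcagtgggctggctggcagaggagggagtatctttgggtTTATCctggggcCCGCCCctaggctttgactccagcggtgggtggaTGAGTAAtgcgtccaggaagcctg
Mmp14, chr14:54431348-54431647, plus strand: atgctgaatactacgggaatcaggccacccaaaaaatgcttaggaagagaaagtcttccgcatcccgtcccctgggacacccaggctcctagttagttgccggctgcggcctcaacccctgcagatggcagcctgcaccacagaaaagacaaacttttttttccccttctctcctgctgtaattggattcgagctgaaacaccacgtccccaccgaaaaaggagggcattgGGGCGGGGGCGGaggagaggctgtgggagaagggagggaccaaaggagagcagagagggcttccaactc
Adamts1, chr16:85803064-85803363, minus strand: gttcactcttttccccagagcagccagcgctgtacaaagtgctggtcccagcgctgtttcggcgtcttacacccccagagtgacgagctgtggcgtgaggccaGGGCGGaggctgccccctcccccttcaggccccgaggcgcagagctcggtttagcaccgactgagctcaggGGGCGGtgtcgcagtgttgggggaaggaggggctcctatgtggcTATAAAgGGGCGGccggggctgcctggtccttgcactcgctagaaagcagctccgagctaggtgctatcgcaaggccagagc
Timp3, chr10:86300162-86300461, plus strand: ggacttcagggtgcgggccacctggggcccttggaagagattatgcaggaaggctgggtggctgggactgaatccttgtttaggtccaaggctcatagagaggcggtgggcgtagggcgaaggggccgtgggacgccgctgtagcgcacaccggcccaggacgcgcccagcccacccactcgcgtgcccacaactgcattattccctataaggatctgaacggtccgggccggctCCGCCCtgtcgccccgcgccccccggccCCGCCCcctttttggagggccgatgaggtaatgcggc
Mmp13, chr9:7272264-7272563, plus strand: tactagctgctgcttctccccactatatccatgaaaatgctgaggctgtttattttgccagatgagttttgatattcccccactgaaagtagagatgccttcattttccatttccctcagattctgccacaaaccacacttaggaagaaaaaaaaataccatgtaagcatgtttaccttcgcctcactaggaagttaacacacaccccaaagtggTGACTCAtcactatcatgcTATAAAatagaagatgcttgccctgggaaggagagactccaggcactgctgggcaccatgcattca

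The Timp1 window held the AP-1 variant TGAGTAA 27 bases after the start, where it was the single member of the 37 with that word, which 2.68% of 32851 windows hold. It also held GATAA on the minus strand at -20 and GGGCGG on the minus strand at -8. Mmp14 had a pair of adjoining GGGCGG words at -19 and -13, and Timp3 had GGGCGG on the minus strand at -15 and 14. Adamts1 had TATAAA at -32 and GGGCGG at -147, -76 and -25. In Mmp13 TGACTCA lay at -35, where the word reads as AP-1 on both strands, and TATAAA at -16.

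Over the members the words were spread unevenly. A member was counted if any of its windows held the word, while the shares of all windows are per window. Of the 42 windows of the members, TGANTCA stood in 11, TATAAA in 12, GATAA in 8 and GGGCGG in 17. TGANTCA stood in 11 of 37 members (29.7%) and in 7.81% of all windows. Of these 11, 8 were members of the Mmp13 to Mmp7 run, in which Mmp8 alone lacked it, and 3 were among the 28 other members (Adam19, Adam1b and Adam25). TATAAA stood in 9 of the 9 members of the run, in 3 of the other 28, and in 13.6% of all windows. Both words together stood in 8 of the 9, against 1.54% of all windows. GATAA was found in 8 members (21.6%) and 25.4% of all windows, and GGGCGG in 17 members (45.9%) and 35.7% of all windows. The run that holds most AP-1 words is thus the run of which 8 of 9 members lay below the level for testing. These matches are descriptions of the letters and not of binding.

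The question of the TAC comparison was how the families respond to pressure overload in each genotype. In G4D hearts TAC raised the inhibitor Timp1, the collagen-cutting MMPs Mmp14 and Mmp2, Mmp23, the sheddases Adam9, Adam10, Adam17 and Adam19, and Adamts1 and Adamts12. It lowered the inhibitor Timp3, the procollagen protease Adamts3, Adamts7, Adam11 and Adam25. In all, 10 of 39 tested members were higher and 5 lower, against 13.2% higher and 9.32% lower of all 13279 tested genes. In wild-type hearts Timp1, Mmp14, Mmp23 and Adamts1 were higher and no member was lower, 4 and 0 of 39, against 5.19% higher and 2.16% lower of all tested genes. At an unadjusted p under 0.05 the wild-type comparison held 11 of the 39 members, against 2642 of all 13279 tested genes. The median log2 fold change of the 39 was 0.06 in G4D and 0.03 in wild type, against -0.02 for all tested genes in each. The 4 members called in wild type were all called in G4D, and 11 of the 15 called in G4D (73.3%) were called there alone. Over all tested genes that share was much the same, 2159 of 2985 calls in G4D (72.3%). A test of the difference between the TAC effects called none of them.

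**Figure D1:**
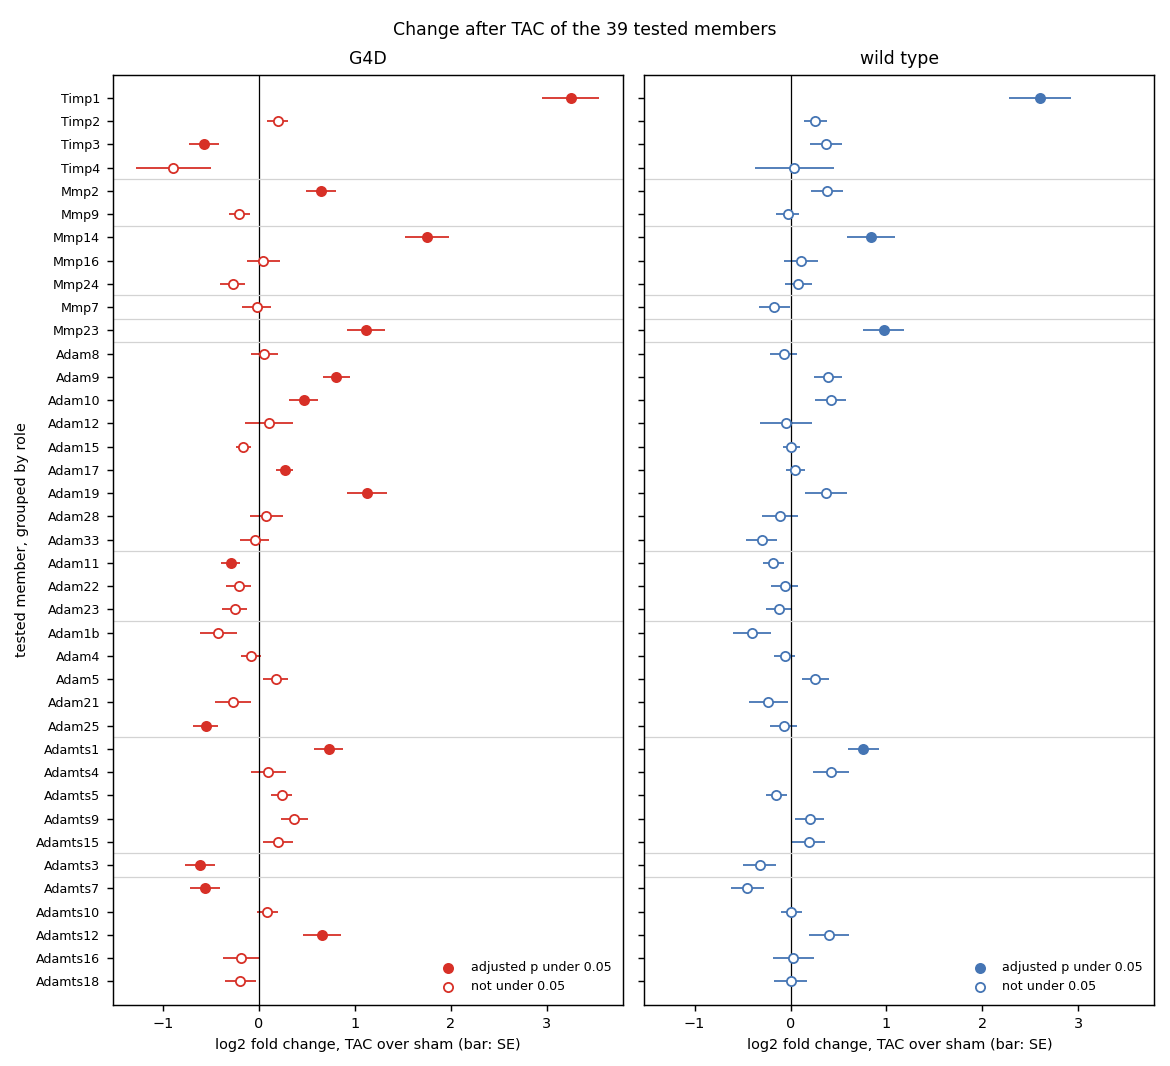
Log2 fold change of TAC over sham (points, with SE as bars) of the 39 tested members in G4D (left) and wild type (right), grouped by role with grey lines between groups. Filled points are members with an adjusted p under 0.05, 15 in G4D and 4 in wild type. Timp1 lies farthest to the right in both, at 3.25 and 2.60.

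The split between rises and falls in G4D depended on the scaling. In the values as deposited, where the median of all genes moved by 0.31, 13 members were called higher and 0 lower, and the calls of Timp3, Adamts3, Adamts7, Adam25 and Adam11 were lost. With the actin difference as a covariate, 7 were called higher and 2 lower in G4D, and Timp1 alone in wild type.

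Among the inhibitors, Timp1 changed by the largest amount of all tested members. Timp1, the inducible TIMP, ran from 6.59 to 8.63 with a median of 7.52 in the 6 G4D TAC samples, against 3.85, 4.42, 4.47, 4.16 and 4.72 in G4D sham. It ran from 6.37 to 8.0 with a median of 6.97 in the 6 wild-type TAC samples, against 4.55, 4.46, 4.25 and 4.65 in wild-type sham. Every TAC sample of either genotype was above every sham sample, and the sham levels lay around the level required for testing. TAC over sham gave a log2 fold change of 3.25 ± 0.30 in G4D (9.5-fold, adjusted p = 3.99e-07) and 2.60 ± 0.32 in wild type (6.05-fold, adjusted p = 7.25e-05). Both calls held under every alternative and with any single sample left out, from 3.04 to 3.47 in G4D and from 2.41 to 2.74 in wild type.

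Timp3, which binds to the matrix and also inhibits ADAM17, went the other way in G4D. In G4D TAC it ran from 8.48 to 9.01 with a median of 8.61, against 9.10, 8.93, 9.47, 9.14 and 9.58 in G4D sham. In wild-type TAC it ran from 8.33 to 9.0 with a median of 8.78, against 8.11, 8.60, 8.63 and 8.05 in wild-type sham. In G4D a single TAC sample reached into the range of sham, and in wild type the groups overlapped. The fit gave a log2 fold change of -0.57 ± 0.16 in G4D (adjusted p = 0.0122) and 0.37 ± 0.17 in wild type (adjusted p = 0.219). All 4 Timp3 probe sets gave a fall in G4D, from -0.87 to -0.54. The fall was not called after median centring, in the values as deposited or with the actin covariate.

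Timp2 and Timp4 were not called in either genotype with the settings used throughout. Timp2, which besides inhibiting takes part in the activation of MMP2 by MMP14, averaged 9.31 ± 0.06 in G4D TAC and 9.11 ± 0.24 in G4D sham, and 9.22 ± 0.22 in wild-type TAC and 8.96 ± 0.13 in wild-type sham (SD). Its log2 fold change was 0.20 ± 0.11 in G4D (adjusted p = 0.214) and 0.26 ± 0.12 in wild type (adjusted p = 0.205). Without sample 5 of G4D sham, the sample with atrial markers, Timp2 was called higher in G4D at 0.30 (adjusted p = 0.0391). It was also called in G4D in the values as deposited (0.63, adjusted p = 0.0424) and in wild type without wild-type TAC sample 6 (0.35, adjusted p = 0.0459). Timp4, the TIMP known for its expression in heart, varied widely within groups. It averaged 6.48 ± 0.58 in G4D TAC and 7.37 ± 0.51 in G4D sham, a log2 fold change of -0.89 ± 0.39 (adjusted p = 0.106). With the mean of its probe sets Timp4 was called lower in G4D (-0.97, adjusted p = 0.0444). In wild type it averaged 6.74 ± 1.00 after TAC and 6.69 ± 0.47 after sham, a log2 fold change of 0.04 ± 0.41 (adjusted p = 0.969).

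**Figure D2:**
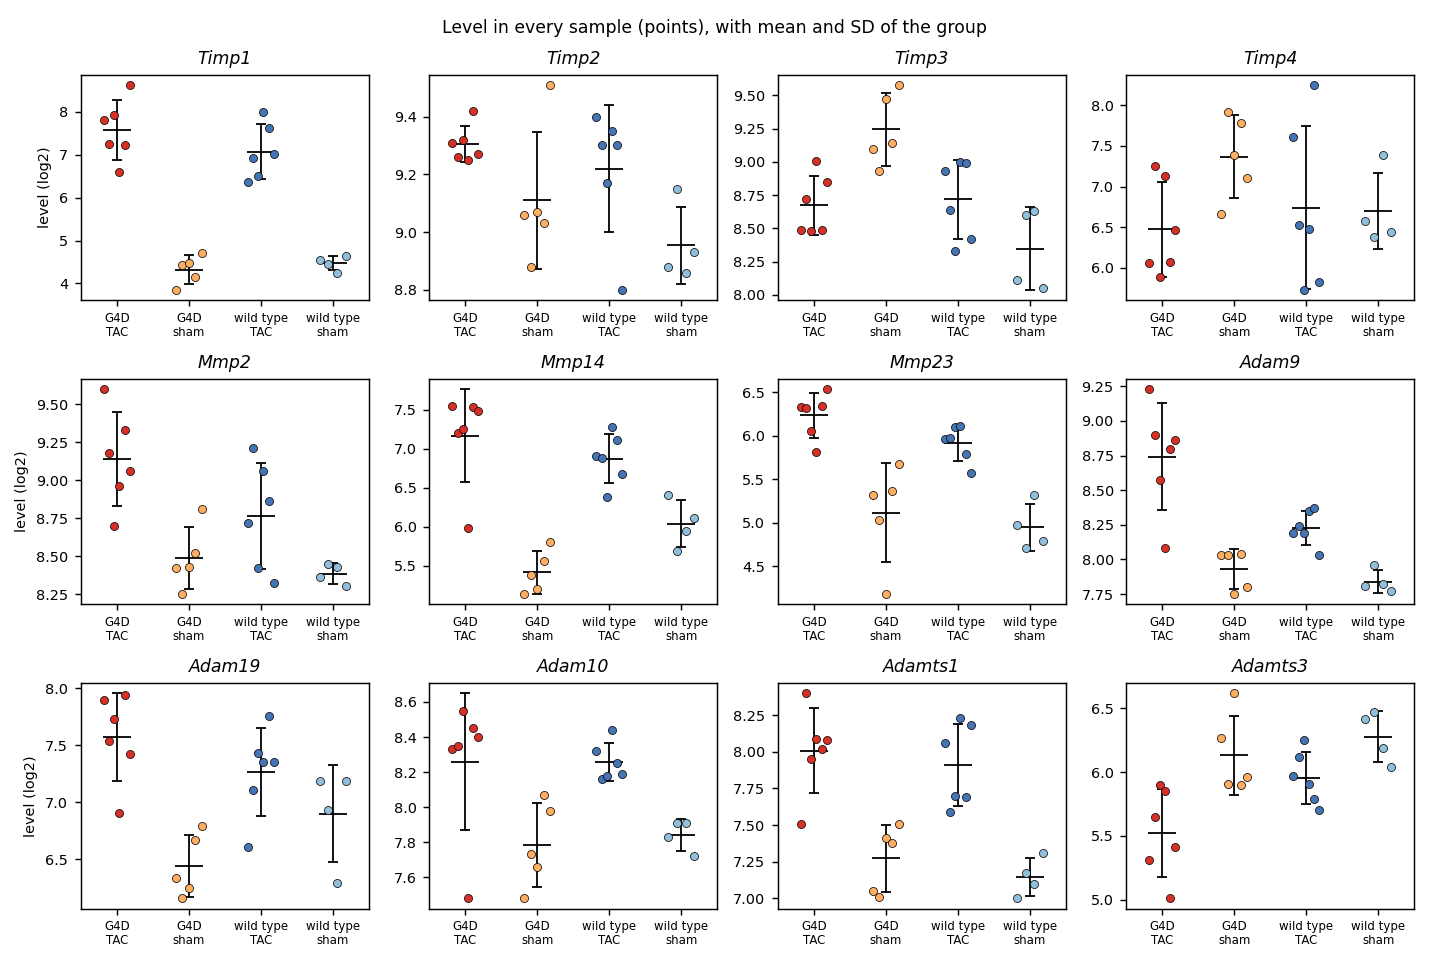
Log2 level (y axis) of 12 members in every sample (points), by group (x axis), with the group mean and SD as bars. Each panel has its own y axis. Timp1 has no overlap between TAC and sham in either genotype, and Timp3 is at 8.93 to 9.58 in G4D sham and at 8.05 to 8.63 in wild-type sham.

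Of the 7 tested MMPs, 3 rose in G4D and 2 of these in wild type. Of all tested genes, 13.2% were called higher in G4D and 5.19% in wild type. Mmp14, the membrane-type MMP that cuts fibrillar collagen and activates pro-MMP2, ran from 5.99 to 7.55 with a median of 7.37 in G4D TAC, against 5.14, 5.39, 5.20, 5.57 and 5.81 in G4D sham. It ran from 6.38 to 7.28 with a median of 6.90 in wild-type TAC, against 6.41, 5.69, 5.95 and 6.12 in wild-type sham. The groups were apart in G4D, with TAC sample 4 low in its group, and overlapped slightly in wild type. The fitted log2 fold change was 1.75 ± 0.23 in G4D (3.36-fold, adjusted p = 1.79e-05) and 0.84 ± 0.25 in wild type (1.78-fold, adjusted p = 0.0424). The wild-type call was lost in 6 of 10 alternatives and without any 1 of 8 samples (wild-type sham 2, 3 and 4, wild-type TAC 1, 2, 4 and 5, and G4D TAC 2).

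The gelatinase Mmp2, which cuts denatured collagen and basement membrane, ran from 8.70 to 9.60 with a median of 9.12 in G4D TAC, against 8.42, 8.25, 8.43, 8.52 and 8.81 in G4D sham. The lowest TAC sample was below the highest sham sample, which was sample 5. In wild-type TAC it ran from 8.32 to 9.21 with a median of 8.79, against 8.36, 8.45, 8.43 and 8.30 in wild-type sham, and the groups overlapped. The log2 fold change was 0.65 ± 0.16 in G4D (adjusted p = 0.00471) and 0.38 ± 0.17 in wild type (adjusted p = 0.199). Mmp9, the gelatinase of neutrophils and macrophages, averaged 4.50 ± 0.23 in G4D TAC and 4.70 ± 0.13 in G4D sham, and 4.61 ± 0.16 in wild-type TAC and 4.63 ± 0.19 in wild-type sham (SD), close to the level required for testing. Its log2 fold change was -0.20 ± 0.11 in G4D (adjusted p = 0.214) and -0.03 ± 0.12 in wild type (adjusted p = 0.935).

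Mmp23, an MMP with an unusual domain layout, ran from 5.82 to 6.54 with a median of 6.33 in G4D TAC, against 5.32, 5.03, 4.18, 5.37 and 5.68 in G4D sham. It ran from 5.57 to 6.11 with a median of 5.97 in wild-type TAC, against 4.98, 4.71, 5.32 and 4.79 in wild-type sham. TAC and sham did not overlap in either genotype. TAC over sham gave a log2 fold change of 1.12 ± 0.20 in G4D (2.17-fold, adjusted p = 3.28e-04) and 0.97 ± 0.21 in wild type (1.96-fold, adjusted p = 0.00657). The wild-type call was lost in the values as deposited and with the actin covariate. Mmp23 overlaps the gene Mib2 in the annotation. The other tested MMPs, Mmp7, Mmp16 and Mmp24, had log2 fold changes between -0.27 and 0.11 in the 2 genotypes and were not called.

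Of the ADAMs, 9 are somatic proteases that carry the zinc-binding motif of an active enzyme, and 4 of these rose in G4D and 0 were called in wild type, against 13.2% and 5.19% of all tested genes called higher. The difference between the TAC effects in the genotypes was called for none of the 9, while Adam9 was called between the genotypes after TAC. Adam19, a sheddase of neuregulin needed for heart development in the mouse, ran from 6.91 to 7.94 with a median of 7.63 in G4D TAC, against 6.34, 6.16, 6.25, 6.67 and 6.79 in G4D sham. In wild-type TAC it ran from 6.61 to 7.76 with a median of 7.35, against 7.19, 6.93, 6.29 and 7.19 in wild-type sham. The groups were apart in G4D and overlapped in wild type. The fit gave a log2 fold change of 1.13 ± 0.21 in G4D (2.19-fold, adjusted p = 4.91e-04) and 0.37 ± 0.22 in wild type (adjusted p = 0.389).

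Adam9, a widely expressed sheddase, ran from 8.08 to 9.23 with a median of 8.83 in G4D TAC, against 8.03, 8.03, 7.75, 8.04 and 7.80 in G4D sham. In wild-type TAC it ran from 8.03 to 8.37 with a median of 8.22, against 7.81, 7.96, 7.82 and 7.77 in wild-type sham. TAC lay above sham without overlap in both genotypes. The fitted log2 fold change was 0.81 ± 0.14 in G4D (1.75-fold, adjusted p = 2.19e-04) and 0.39 ± 0.15 in wild type (adjusted p = 0.124).

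Adam10 and Adam17, the main sheddases of Notch and of TNF, had smaller fold changes. Adam10 averaged 8.26 ± 0.39 in G4D TAC and 7.78 ± 0.24 in G4D sham (SD), a log2 fold change of 0.47 ± 0.15 (adjusted p = 0.023). In G4D the groups overlapped, and TAC sample 4, at 7.48, was the lowest of its group. In wild type Adam10 averaged 8.26 ± 0.11 after TAC and 7.84 ± 0.09 after sham (SD) with no overlap, and its log2 fold change of 0.42 ± 0.16 was not called (adjusted p = 0.118). It was called there without G4D TAC sample 4 (0.42, adjusted p = 0.0104), with the mean of the probe sets (0.53, adjusted p = 0.0358), with array weights (0.41, adjusted p = 0.0236) and in the compared groups alone (0.42, adjusted p = 0.00997). Adam17 averaged 7.68 ± 0.05 in G4D TAC and 7.41 ± 0.23 in G4D sham (SD), a log2 fold change of 0.27 ± 0.09 (adjusted p = 0.0361). In wild type it stood at 0.05 ± 0.10 (adjusted p = 0.818). The G4D call of Adam10 was lost in 4 and that of Adam17 in 5 of 10 alternatives, and each was lost without any 1 of several samples (G4D sham 1 and 3 and G4D TAC 3, 5 and 6 for Adam10, and G4D sham 1, 2 and 5 and G4D TAC 1, 2, 5 and 6 for Adam17). Adam17 overlaps Iah1 in the annotation.

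Adam12, a sheddase of HB-EGF, was not called, with log2 fold changes of 0.11 ± 0.25 in G4D (adjusted p = 0.797) and -0.05 ± 0.27 in wild type (adjusted p = 0.944). Adam8, Adam15, Adam28 and Adam33, the other tested ADAMs with the motif, were not called and lay between -0.30 and 0.08. Adam11, which lacks the motif and acts at synapses in the mouse, averaged 5.69 ± 0.13 in G4D TAC and 5.98 ± 0.25 in G4D sham (SD). Its 6 G4D TAC samples ran from 5.52 to 5.91 with a median of 5.66, against 5.81, 5.62, 6.14, 6.13 and 6.18 in G4D sham, and the groups overlapped. The log2 fold change was -0.29 ± 0.10 in G4D (adjusted p = 0.0495) and -0.18 ± 0.11 in wild type (adjusted p = 0.404). In wild type it ran from 5.50 to 5.78 after TAC, against 5.92, 5.73, 5.66 and 5.90 after sham, and the groups overlapped. The G4D call was lost without any 1 of 18 of the 21 samples and in 8 of 10 alternatives. Adam22 and Adam23, also without the motif, were not called, between -0.25 and -0.06.

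Of the ADAMs of the germ line and reproductive tract, 5 were tested, and Adam25, testase 2, was called lower in G4D. Of all tested genes, 9.32% were called lower there. Adam25 ran from 4.62 to 4.98 with a median of 4.75 in G4D TAC, against 5.49, 5.19, 5.68, 4.95 and 5.25 in G4D sham. These levels are near the level required for testing, and the highest TAC sample was just above the lowest sham sample. In wild type Adam25 ran from 4.66 to 5.32 after TAC, against 5.13, 4.90, 4.71 and 5.15 after sham, with overlap. TAC over sham gave a log2 fold change of -0.55 ± 0.13 in G4D (adjusted p = 0.00438) and -0.07 ± 0.14 in wild type (adjusted p = 0.847). Adam1b, Adam4, Adam5 and Adam21, the other tested members of this kind, were not called, with log2 fold changes from -0.42 to 0.26 over both genotypes.

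Among the ADAMTS proteases, Adamts1, which cuts versican and aggrecan, rose in both genotypes. It ran from 7.51 to 8.40 with a median of 8.05 in G4D TAC, against 7.05, 7.01, 7.41, 7.38 and 7.51 in G4D sham. It ran from 7.59 to 8.23 with a median of 7.88 in wild-type TAC, against 7.0, 7.17, 7.10 and 7.31 in wild-type sham. In G4D the lowest TAC sample met the highest sham sample, and in wild type the groups were apart. The fit gave a log2 fold change of 0.73 ± 0.15 in G4D (1.66-fold, adjusted p = 0.001) and 0.76 ± 0.16 in wild type (1.7-fold, adjusted p = 0.00435). The wild-type call was lost in the values as deposited and with the actin covariate. Its neighbour Adamts5, the main aggrecanase of mouse cartilage, was not called, at 0.24 ± 0.11 in G4D (adjusted p = 0.106) and -0.15 ± 0.11 in wild type (adjusted p = 0.502). The other tested proteoglycan proteases, Adamts4, Adamts9 and Adamts15, were not called, with log2 fold changes from 0.10 to 0.42 over both genotypes.

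Adamts12, which cuts the matrix protein COMP, ran from 5.43 to 6.34 with a median of 6.06 in G4D TAC, against 5.60, 4.66, 5.62, 5.31 and 5.17 in G4D sham. The groups overlapped, and G4D sham sample 2 was low in its group. In wild type it ran from 5.17 to 6.09 after TAC, against 5.31, 5.45, 5.15 and 5.04 after sham, also with overlap. The fitted log2 fold change was 0.66 ± 0.20 in G4D (adjusted p = 0.0197) and 0.40 ± 0.21 in wild type (adjusted p = 0.303). Without that sample it was 0.50 in G4D and not called (adjusted p = 0.0682). The G4D call was also lost with the actin covariate.

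Adamts3, which removes the N-terminal propeptide of procollagen and activates VEGF-C, fell in G4D. It ran from 5.01 to 5.90 with a median of 5.53 in G4D TAC, against 6.27, 5.91, 6.62, 5.90 and 5.96 in G4D sham. The highest TAC sample matched the lowest sham sample. In wild type it ran from 5.70 to 6.25 after TAC, against 6.42, 6.47, 6.19 and 6.04 after sham, and the groups overlapped. The log2 fold change was -0.61 ± 0.16 in G4D (adjusted p = 0.0087) and -0.32 ± 0.17 in wild type (adjusted p = 0.313). The G4D call was lost in the values as deposited and with the actin covariate.

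Adamts7, another protease of COMP, also fell. It ran from 4.72 to 5.84 with a median of 4.96 in G4D TAC, against 5.33, 6.05, 5.74, 5.56 and 5.54 in G4D sham. TAC sample 4 was alone above the lowest sham sample. TAC over sham gave a log2 fold change of -0.56 ± 0.16 in G4D (adjusted p = 0.0162) and -0.45 ± 0.17 in wild type (adjusted p = 0.134). In wild type Adamts7 ran from 5.19 to 5.72 after TAC, against 6.0, 5.73, 5.93 and 6.08 after sham, with no overlap. The G4D call was lost in 4 of 10 alternatives. These were the values as deposited, median centring, the compared groups alone and the actin covariate. The call was also lost without G4D sham sample 2 (adjusted p = 0.0548). Adamts10, Adamts16 and Adamts18 were not called, with log2 fold changes from -0.19 to 0.09 over both genotypes.

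The 7 tested members with several probe sets that were called in G4D (Timp3, Mmp14, Mmp2, Adam19, Adam10, Adam17 and Adam11) had the same sign in every probe set above the level required. Sizes differed within a gene. The 3 of Mmp14 gave 1.75, 1.06 and 0.36, the 2 of Adam19 gave 1.13 and 1.07, and the 3 of Adam10 gave 0.10 to 0.47. When all 45037 probe sets were tested, 8.97% were called in G4D and 2.02% in wild type. These shares include probe sets below the level required, so they are not a like base for the members. Of the 68 probe sets of the tested members above that level, 18 were called in G4D and 3 in wild type. In G4D these held 4 of 4 of Timp3, 2 of 3 of Mmp14, 2 of 2 of Mmp2, 2 of 2 of Adam19 and 1 of 2 of Timp4, but 0 of 3 of Adam10, 0 of 3 of Adam17 and 0 of 2 of Adam11. In wild type they held 0 of 3 of Mmp14. Among members with several probe sets, these 4 calls thus do not hold when all probe sets are tested together. Which calls of members with a single probe set above the level hold is not given here.

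**Figure D3:**
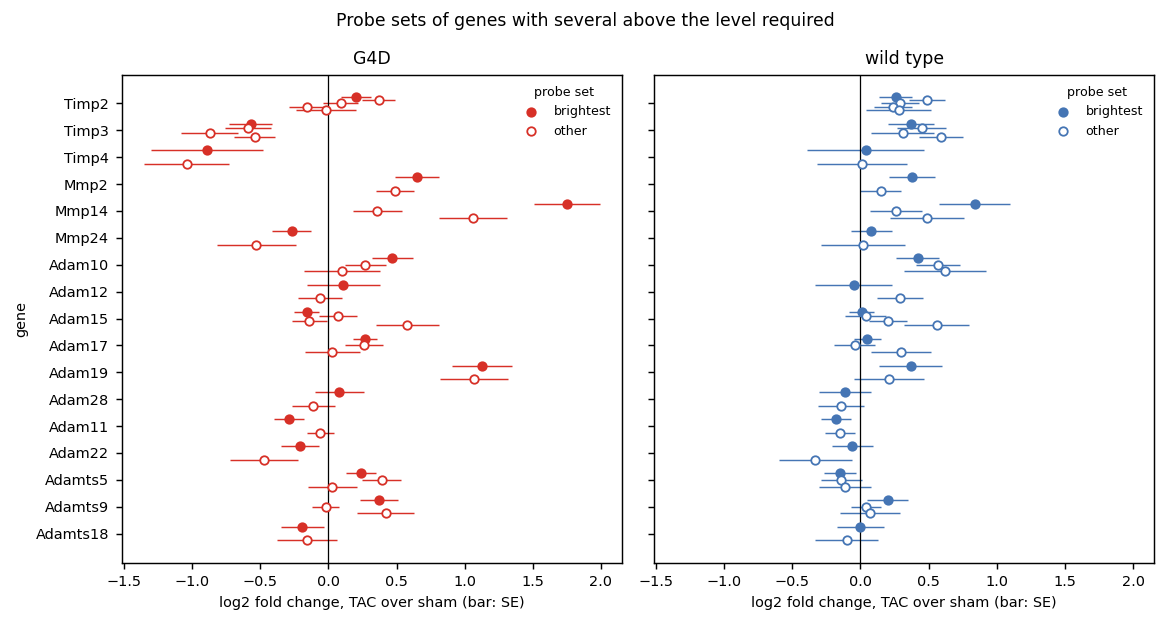
Log2 fold change of TAC over sham (points, with SE as bars) of each probe set above the level required, for the 17 tested members with several such probe sets, in G4D (left) and wild type (right). Filled points are the brightest probe set of the gene. The 4 probe sets of Timp3 lie left of 0 in G4D and right of 0 in wild type.

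The genotypes were compared after TAC to see how the loaded hearts of G4D and wild-type mice differ. Adam9 was higher in G4D TAC than in wild-type TAC and was the single member called, 1 of 39 against 3.36% of all tested genes. An unadjusted p under 0.05 was found for 6 of 39 members, against 1784 of all 13279 tested genes. Adam9 ran from 8.08 to 9.23 in G4D TAC and from 8.03 to 8.37 in wild-type TAC. The groups overlapped through sample 4 of G4D TAC. The fit gave a log2 fold change of 0.51 ± 0.13 (1.43-fold, adjusted p = 0.0318). The call was lost in 6 of 10 alternatives and without any 1 of 8 samples (wild-type TAC 1, 2, 3 and 6, and G4D TAC 1, 2, 5 and 6). Timp1 stood at 0.50 ± 0.29 (adjusted p = 0.521), Mmp14 at 0.29 ± 0.22 (adjusted p = 0.68), Mmp2 at 0.37 ± 0.15 (adjusted p = 0.24) and Adamts3 at -0.43 ± 0.15 (adjusted p = 0.148).

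After sham the comparison asked for differences without load, and no member was called by limma, 0 of 39 against 0.0527% of all tested genes. At an unadjusted p under 0.05 there were 5 of 39 members, against 1074 of all 13279 tested genes. Timp3 had the lowest p of the members. The 5 G4D sham samples, given above, were all higher than the 4 wild-type sham samples, with means of 9.24 ± 0.27 in G4D sham and 8.35 ± 0.31 in wild-type sham (SD). The fitted log2 fold change was 0.90 ± 0.17 (1.86-fold, 95% interval 0.53 to 1.26) and its adjusted p of 0.0659 missed the threshold. It was called with a filter at the 60th percentile (adjusted p = 0.0421), with the mean of the probe sets of a gene (0.0296), with a prior variance that follows the level (0.0313), and without G4D sham sample 2 (0.0196). Adamts5 was lower in every G4D sham sample, at 6.96 ± 0.13 in G4D sham and 7.35 ± 0.19 in wild-type sham (SD), with a log2 fold change of -0.39 ± 0.12 that was not called (adjusted p = 0.306). Mmp14 averaged 5.42 ± 0.27 in G4D sham and 6.04 ± 0.30 in wild-type sham (SD), -0.62 ± 0.26 (adjusted p = 0.515).

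**Figure D4:**
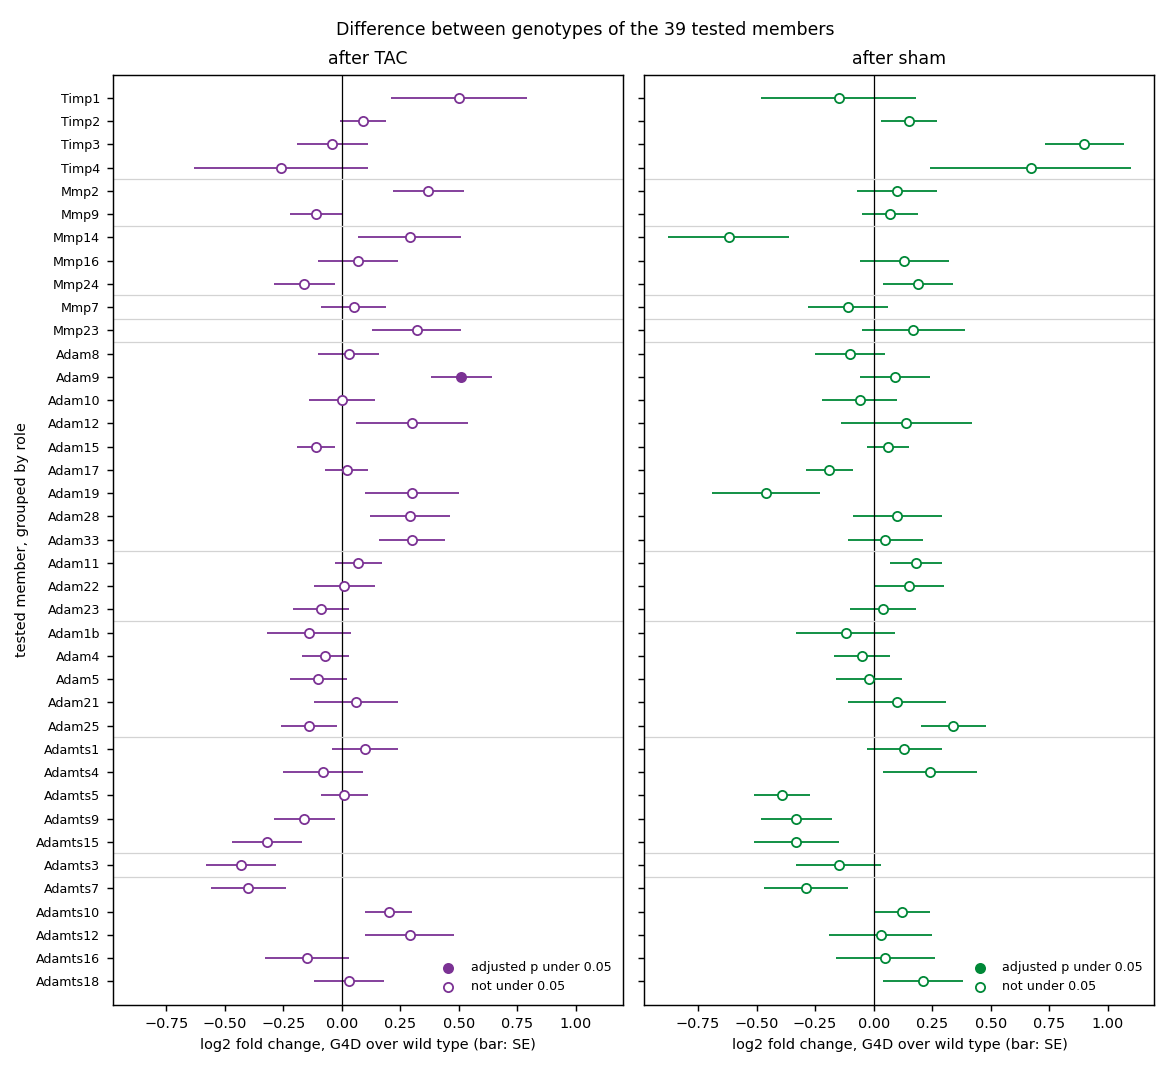
Difference of G4D over wild type as a log2 fold change (points, with SE as bars) of the 39 tested members after TAC (left) and after sham (right), grouped by role. Adam9 after TAC, at 0.51, is the filled point, with an adjusted p under 0.05. Timp3 after sham lies farthest to the right, at 0.90.

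The difference between the TAC effects, that in G4D less that in wild type, was tested for every gene. No member was called by limma, 0 of 39 against 0.0151% of all tested genes. An unadjusted p under 0.05 was found for 6 of 39 members, against 1110 of all 13279 tested genes. Of the members, Timp3 had the lowest p, at -0.94 ± 0.23 (95% interval -1.42 to -0.46, adjusted p = 0.169). Mmp14 stood at 0.91 ± 0.34 (0.21 to 1.62, adjusted p = 0.425) and Adamts5 at 0.40 ± 0.15 (0.08 to 0.72, adjusted p = 0.453). Without sample 4 of G4D TAC, Mmp14 was called at 1.15 (adjusted p = 0.0467). This contrast shares the G4D sham samples with TAC over sham in G4D and with G4D over wild type in sham, so the values of Timp3 and Mmp14 in the 3 are not separate evidence. For none of the 11 members called after TAC in G4D alone was the difference between the TAC effects called. Of these, Adam9 was called between the genotypes after TAC.

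Other genes of pericellular proteolysis were taken from a list of 56 activators, other proteases, regulators and substrates, of which 45 were tested. In G4D 21 were higher and 2 lower after TAC, in wild type 9 were higher and 0 lower, and between the genotypes after TAC 7 were higher and 1 lower in G4D. The shares of all tested genes were 13.2% and 9.32% in G4D, 5.19% and 2.16% in wild type, and 2.1% and 1.26% between the genotypes, and the list was chosen with earlier results of these data known. Of the 7 tested matrix substrates, 5 were higher in G4D and 2 in wild type. Vcan, the proteoglycan versican, was higher by 2.12 ± 0.20 in G4D and 1.26 ± 0.21 in wild type, and Fn1, fibronectin, by 1.75 ± 0.26 in G4D and 1.69 ± 0.28 in wild type. Comp, cartilage oligomeric matrix protein, was higher by 1.32 ± 0.27 in G4D.

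Proteases and enhancers of the list behaved as follows. Ctsk, the collagen-cutting cathepsin K, was higher by 1.41 ± 0.18 in G4D and 0.90 ± 0.19 in wild type, and Ctss, the cathepsin S of macrophages, by 0.91 ± 0.24 in G4D and 1.02 ± 0.25 in wild type. Pcolce, which speeds the removal of the procollagen C-propeptide, was higher by 1.36 ± 0.13 in G4D and 0.92 ± 0.14 in wild type. Plat, tissue plasminogen activator, was higher by 0.69 ± 0.14 in G4D and 0.60 ± 0.14 in wild type. Adamtsl2, an ADAMTS-like matrix protein without a protease domain, was higher by 1.03 ± 0.13 in G4D and 0.70 ± 0.14 in wild type. Serpinf2, the plasmin inhibitor, was lower in G4D (-0.43 ± 0.15).

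Of the partners of ADAM10 and ADAM17, 4 of 7 tested were higher in G4D and 2 of 7 in wild type, against 13.2% and 5.19% of all tested genes. Tspan17, a tetraspanin partner of ADAM10, was higher by 0.82 ± 0.13 in G4D and 0.58 ± 0.14 in wild type, and Rhbdf1, a rhomboid-like partner of ADAM17, by 0.40 ± 0.07 in G4D and 0.32 ± 0.07 in wild type. Of the surface substrates, Hbegf, the precursor of HB-EGF, was the single one of 6 called in G4D, at 1.17 ± 0.12. Reck, a membrane-anchored inhibitor of MMPs, was not called, at -0.02 ± 0.09 in G4D (adjusted p = 0.888) and 0.21 ± 0.09 in wild type (adjusted p = 0.202). Between the genotypes after TAC, Comp (1.52 ± 0.26), Vcan (0.78 ± 0.19), Ctsk (0.72 ± 0.17), Tspan17 (0.68 ± 0.12), Hbegf (0.65 ± 0.12), Adamtsl2 (0.63 ± 0.12) and Pcolce (0.57 ± 0.12) were higher in G4D, and Pcsk6, a proprotein convertase, was lower (-0.50 ± 0.11).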

How the data were processed

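The 21 deposited columns hold log2 values, 1 per probe set of an Affymetrix mouse array. The authors summarised the probes with PLIER, per the submitters' processing notes. The PLIER version, background correction and normalization are not given in the sources used here, and the log2 scale was read from the values, which ran from -13.5 to 15.1. Array medians ran from 4.31 to 5.33, and the arrays were therefore quantile normalized. Of 45037 non-control probe sets, 34945 carried exactly 1 symbol in the platform annotation, 932 several and 9160 none. Probe sets with 1 symbol and a mean at or above the 40th percentile (4.35) were kept, and the brightest probe set stood for its gene, leaving 13279 genes to test. Probe sets that name a member together with another gene (5) were not used.

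Group means were fitted with limma 3.58.1 (R 4.3.3) on all 21 arrays together. Tests were two-sided, with p-values adjusted by Benjamini-Hochberg over the 13279 genes of each comparison, and calls were made under 0.05. Beside a log2 fold change ± gives the standard error, elsewhere the SD. The number of arrays limits the precision.

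The members, the pathway and marker lists and the naming rule were chosen with earlier results of these data known. Text names every called member, the 3 lowest p of the sham and interaction comparisons, a few members and Reck whatever their result, and up to 3 called genes per pathway class. Replicate numbers in the titles were checked as pairs. The 28 pairs of samples with the same number correlated in their deviations at -0.36 to 0.42, median -0.07, and 9 were over 0.1. For the 136 pairs with different numbers the median was -0.01, and 52 were over 0.1. The numbers were therefore not taken to pair samples. No 2 arrays were alike beyond a correlation of 0.9428 in their values. Alternatives were the values as deposited, median centring, no filter or a 60th percentile filter, the mean of a gene's probe sets, array weights, a trended prior, the compared groups alone, a replicate block, leaving out each sample and, chosen after seeing the data, the actin 3' to 5' difference as a covariate. Promoters came from RefSeq (GRCm38.p6).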

Additional observations from a re-analysis of the deposited data

Results flagged for a closer look

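The levels of the 20 followed members were examined in each group for a single sample far from the others, and 3 of 80 sets of values were found, all of them in sample 4 of G4D TAC. Chance alone gives about 1 in 20. In that sample Adam10 was at 7.48, with the nearest G4D TAC sample at 8.33. Mmp14 was at 5.99, with the nearest at 7.21. Adamts7 was at 5.84, with the nearest at 5.06. In each case the sample lay toward the sham level of its genotype. This sample was also the lowest of its group in the mean of the fibroblast markers (9.08, the others 9.23 to 9.56), in that of the macrophage markers (8.29, the others 8.34 to 8.79), in its deposited median (4.37, the others 4.82 to 5.33) and in its correlation with the rest of the group (0.937, the others 0.943 to 0.956). Its cardiac muscle markers (12.35) and its actin difference (0.33) were within the range of the others. The part of these in its levels was not tested.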

How the results depend on the processing

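The numbers of members called were followed under each alternative. TAC over sham in G4D gave 15, between 11 and 16 under the other settings, 9 with the actin covariate, and 12 to 16 when 1 sample was left out. TAC over sham in wild type gave 4, but 1 in the values as deposited, 7 in a fit of only the groups compared and 1 with the actin covariate, which was chosen after seeing the data, and 3 to 7 when 1 sample was left out (7 without sample 4 of G4D TAC). G4D over wild type in sham gave 0, but 1 (Timp3) with a 60th percentile filter, with the mean of the probe sets and with the trended prior, and 0 to 1 when 1 sample was left out (1 without G4D sham 2). After TAC the genotypes gave 1, but 0 in the values as deposited, after median centring, without a filter, in a fit of only the groups compared and with the actin covariate, and 3 with array weights. It gave 0 to 2 when 1 sample was left out, with 2 without sample 4 of G4D TAC. The interaction gave 0 to 1 (Mmp14 without sample 4 of G4D TAC). With the replicate number as a block, which the check of the pairing gave no ground for, the 5 comparisons in this order gave 12, 3, 0, 0 and 0. The causes were not tested.

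Over 67 single-gene differences and 2059 alternative values, 1 was reversed, that of Adam11 in G4D, at 0.01 in the values as deposited. A further 49 changed sign where neither value was called. Of the 20 called differences, 8 kept their call in every setting and without any single sample: Timp1 in both genotypes and Mmp14, Mmp2, Mmp23, Adam9, Adam19 and Adamts1 in G4D. The median of all genes moved by 0.31 for TAC in G4D, by -0.28 in sham, by 0.14 after TAC and by 0.42 in the interaction in the values as deposited. After median centring it moved by 0.10, -0.12, 0.02 and 0.15.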
